A study of Homo sapiens with 6 samples.

Results

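The genes that make, control and break down polyamines were followed in CAL-27 sphere cells. They are 10 genes chosen by symbol for their role: ODC1, AMD1, SRM and SMS for synthesis, OAZ1, OAZ2 and AZIN1 for antizyme control, and SAT1, SMOX and PAOX for breakdown. All 10 were found among the 17280 genes of the deposited table, and all 10 were among the 12195 genes that were tested. CAL-27 is an established line of human tongue squamous cell carcinoma, here cultured as floating spheres, a way to favour stem-like cells. RNA was sequenced in 6 libraries, 3 titled CON, which the labels call the normal control, and 3 titled LF3. LF3 is a compound that keeps beta-catenin from binding TCF4, the transcription factor of the Wnt pathway, and the series design gives an exposure of 24 h. The treatment field of the LF3 libraries names another agent, elesclomol with copper, also for 24 h, so which agent the cells received cannot be settled from the labels, and groups were taken from the titles. Both groups are 1 cell line, and the labels do not tie replicates to separate cultures, so every p-value rests on the spread among these libraries alone, and that spread may be technical.

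Polyamines are small positively charged molecules that bind RNA and DNA and that growing cells need. Ornithine decarboxylase (ODC1) makes putrescine, and spermidine synthase (SRM) and spermine synthase (SMS) extend it with aminopropyl groups from decarboxylated S-adenosylmethionine, the product of AMD1. Antizymes bind ornithine decarboxylase and send it to the proteasome, while antizyme inhibitor (AZIN1), a relative of the enzyme without its activity, takes antizyme away from it. SAT1 acetylates spermidine and spermine for export or for oxidation by PAOX, and SMOX oxidizes spermine directly. ODC1 is a well known target of the transcription factor MYC.

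Antizyme RNA is not the same as antizyme protein, because ribosomes must shift frame at a fixed place in the message, a step that polyamines promote. The place is shown for both antizyme genes because the libraries measured RNA only. In each 30-base stretch the capitals mark TCCTGA, the codon before the shift followed by the stop codon that is read through. The bases are those of GENCODE 29 transcripts (GRCh38), OAZ1 at chr19:2271428-2271457 on the plus strand and OAZ2 at chr15:64691501-64691530 on the minus strand, and the annotated full-length coding transcripts leave out 1 base there. The stretches of the 2 genes differed at 1 of 30 bases.
OAZ1: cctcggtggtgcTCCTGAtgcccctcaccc
OAZ2: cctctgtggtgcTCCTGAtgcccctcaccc

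Promoters were read from RefSeq (GRCh38.p14), whose table held windows for 7 of the 10 genes; AZIN1, SMOX and PAOX had none. The 250 bases before each start were searched on both strands for the E-box CACGTG, the letters that MYC with MAX is known to bind, and for CTTTGAT, a form of the TCF site; these motifs do not overlap each other. CACGTG was found in ODC1 and SRM, 2 of 7 genes, and in 7.73% of all 27305 genes of the table (6.34% of its 35116 windows). CTTTGAT was found in 0 of 7 genes and in 2.75% of all genes (2.26% of windows). The bases around the 2 E-boxes are printed, in capitals at the E-box, and bases that GENCODE 29 places in an exon were left off. Both genes were higher in LF3, as was AMD1, whose windows held no CACGTG. The other window of ODC1 held none either. The SRM stretch is chr1:11060025-11060268, minus strand, with the E-box starting 199 bases before the start of transcription, and the ODC1 stretch is chr2:10448013-10448120, minus strand, with the E-box starting 29 bases before it.
SRM: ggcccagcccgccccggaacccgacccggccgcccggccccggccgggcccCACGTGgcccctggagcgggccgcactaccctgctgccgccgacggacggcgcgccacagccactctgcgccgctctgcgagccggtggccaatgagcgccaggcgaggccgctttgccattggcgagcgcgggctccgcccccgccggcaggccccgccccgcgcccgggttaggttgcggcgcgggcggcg
ODC1: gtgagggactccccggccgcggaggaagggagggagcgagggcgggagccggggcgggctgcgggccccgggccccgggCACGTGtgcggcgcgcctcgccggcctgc

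Both stretches are rich in G and C, at 82.0% for SRM and 84.3% for ODC1. MYC itself had a log2 fold change of 1.21 ± 0.054 and MAX one of 0.95 ± 0.064. A match of letters is a description of sequence, and binding was not measured.

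The values are TPM, a gene's share of all transcripts after correction for its length, so levels of different genes can be compared within a library; library depth is not kept in this unit and is unknown. Gene values below are means ± SD (n = 3 per group). Log2 fold changes are differences of mean log2(TPM + 1), LF3 less CON, ± the standard error from limma, and a gene is called when its Benjamini-Hochberg adjusted p over all tested genes is under 0.05. The 2 groups differed across the whole table: across genes, log2 values of 2 libraries correlated at 0.996 to 0.997 in the same group and at 0.863 to 0.867 in different groups. Of the 8 squamous epithelial markers, 7 averaged at least 1 TPM, and KRT14 averaged 0.777 TPM in CON and 0.447 TPM in LF3. All 8 together summed to 912 to 945 TPM in the CON libraries and 1143 to 1192 TPM in LF3. They did not move together: KRT5 averaged 102 ± 3.43 TPM in the CON libraries against 454 ± 6.66 TPM under LF3, and KRT17 averaged 200 ± 8.66 against 58.8 ± 0.706 TPM. Markers of other cell types moved as well: those of fibroblasts (3 of 6 at a mean of 1 TPM or more) summed to 14.8 to 15.8 TPM in the CON libraries and 6.81 to 7.69 TPM in LF3, and those of endothelium (1 of 4, CDH5) to 0.410 to 0.570 and 6.24 to 7.26 TPM. Of 4 leukocyte markers in the table, 2 averaged at least 1 TPM. The 4 together summed to 328 to 341 TPM in the CON libraries and 46.1 to 49.8 TPM in LF3. Nearly all of it was CD68 (334 ± 6.49 and 47.4 ± 2.25 TPM). The pan-leukocyte gene PTPRC averaged 0.0133 TPM in CON and was listed at 0 in LF3, as were COL3A1, DCN and KDR. What part these marker changes have in the results was not tested. In bulk RNA, fewer cells of a kind and less RNA per cell cannot be told apart.

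In LF3, RNA of 3 synthesis genes was higher, most of all SRM and AMD1. The breakdown genes were split: RNA of SAT1 and SMOX was lower, and RNA of PAOX was higher. AZIN1 was higher and OAZ2 lower. The direction of the fourth synthesis gene, SMS, turned under another scaling of the libraries, and OAZ1, the main antizyme gene, lost its call under it. As deposited, all 10 genes were called, 7 higher and 3 lower, where 85.5% of all tested genes were called, 53.2% higher and 32.3% lower. A call alone thus says little here, and the sizes carry more. Called changes of at least 2-fold were found as deposited for 3 genes upward (SRM, AMD1, AZIN1) and 1 downward (SAT1), against 20.8% and 11.1% of tested genes. The groups did not overlap for any of the 10 genes, as for 86.2% of tested genes.

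The scaling bears on the small changes and on the count of 2-fold changes. Over all tested genes the median change on the log2 scale was 0.24 as deposited, -0.0055 after median-ratio rescaling, which divides a library by its median ratio to a reference of geometric means, and 0.026 after quantile normalization. The median of the 10 genes was 0.41 as deposited, 0.16 after rescaling and 0.40 after quantile normalization. Their calls became 5 higher and 3 lower after rescaling, where 5195 and 5205 of the 12195 tested genes were called higher and lower. After quantile normalization they were 6 higher and 3 lower, against 5351 and 5059 of the 12195. SMOX, called but under 2-fold as deposited, passed 2-fold downward in both (-1.06 and -1.09). Values that moved by over 1.5 times with the scaling are therefore given below under both.

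**Figure D1:**
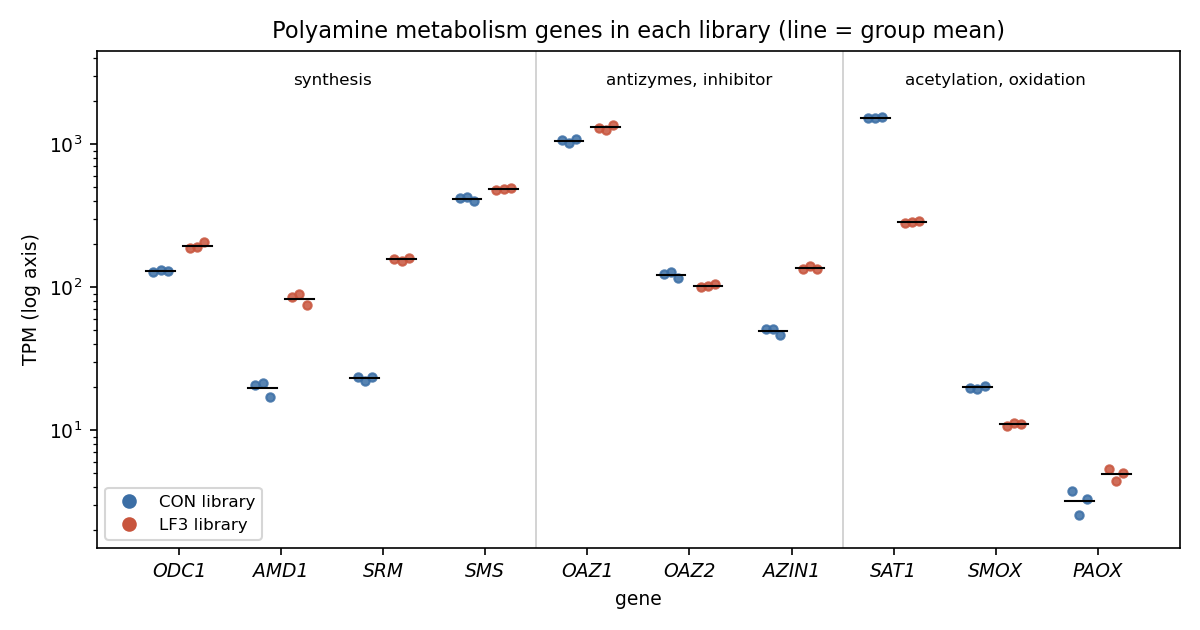
TPM of each gene (log axis) in the 3 CON libraries (blue) and the 3 LF3 libraries (red), with the group mean as a line and genes ordered by role. SAT1 drops from 1528 to 285 TPM while SRM and AMD1 climb from about the level of SMOX to 156 and 83.0 TPM.

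SRM, which makes spermidine, had the largest change of the 10 genes as deposited. It was measured at 23.45, 22.08 and 23.40 TPM in the CON libraries and at 158.10, 151.58 and 158.95 TPM in LF3. Each group was tight, and every LF3 library lay far above every CON library. The means were 23.0 ± 0.777 and 156 ± 4.03 TPM, a 6.80-fold ratio, with a log2 fold change of 2.71 ± 0.045 (limma adjusted p = 3.18e-12). The change lay at the 99.3 percentile of all tested genes. It was 2.45 after rescaling, where SAT1 changed more (-2.69). After quantile normalization SRM was at 2.40 and SAT1 at -2.42.

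AMD1, whose product supplies the aminopropyl donor, was next among the genes that were higher in LF3. Its values were 20.60, 21.26 and 17.07 TPM in the CON libraries and 84.86, 89.34 and 74.70 TPM in LF3. Replicate 3 was the lowest in both groups, and the groups did not overlap. The log2 fold change was 2.03 ± 0.087 (limma adjusted p = 2.36e-09), a 4.22-fold ratio of means, at the 96.7 percentile.

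ODC1, the enzyme that starts the pathway, changed less than either. It was at 128.28, 131.02 and 128.78 TPM in the CON libraries and at 188.33, 189.60 and 205.10 TPM in LF3. All LF3 libraries lay above all CON libraries (means 129 ± 1.46 and 194 ± 9.34 TPM). The log2 fold change was 0.58 ± 0.041 (limma adjusted p = 1.49e-07), at the 64.5 percentile of tested genes, and 0.31 after both rescaling and quantile normalization, with the call kept in each.

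SMS, which turns spermidine into spermine, was the most abundant synthesis gene in both groups. It was at 416.76, 428.10 and 400.30 TPM in the CON libraries and at 477.76, 488.34 and 494.66 TPM in LF3. As deposited the LF3 libraries were all above the CON libraries, with a log2 fold change of 0.23 ± 0.034 (limma adjusted p = 7.82e-05), close to the median of all genes. After rescaling the value was -0.043 (adjusted p = 0.363), and after quantile normalization it was 0.064 (adjusted p = 0.0974), so no direction is given for SMS; over 16 alternatives the adjusted p ran from 3.23e-05 to 0.363. With rescaling factors taken over all genes of the table in place of the tested genes, the value was 0.013 (adjusted p = 0.791), so its sign also turned on which genes set the factors.

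Among the genes of antizyme control, AZIN1, which frees ornithine decarboxylase from antizyme, moved most. It was at 51.30, 51.13 and 46.48 TPM in the CON libraries and at 134.30, 140.22 and 133.17 TPM in LF3. The groups were well apart, with means of 49.6 ± 2.74 and 136 ± 3.79 TPM. The log2 fold change was 1.44 ± 0.049 (limma adjusted p = 4.00e-10) and 1.17 after rescaling.

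OAZ1, the abundant antizyme gene, was at 1077.14, 1015.94 and 1086.83 TPM in the CON libraries and at 1298.68, 1265.45 and 1363.07 TPM in LF3. The LF3 libraries were higher as deposited by 0.30 ± 0.037 on the log2 scale (limma adjusted p = 1.61e-05), but by 0.030 after rescaling (adjusted p = 0.599) and by 0.51 after quantile normalization (adjusted p = 2.66e-07), the lowest and the highest adjusted p of its 16 alternatives being those of the latter pair. OAZ2, the second antizyme gene, was at 123.99, 127.71 and 115.26 TPM in the CON libraries and at 99.67, 101.21 and 105.01 TPM in LF3. Here the LF3 libraries were all below the CON libraries. The log2 fold change was -0.26 ± 0.046 (limma adjusted p = 0.000307), and it was -0.53 after rescaling and -0.58 after quantile normalization.

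The breakdown genes did not move together. SAT1, the acetyltransferase, was the most abundant of the 10 genes in CON, at 1519.41, 1528.20 and 1537.84 TPM, and was at 281.04, 283.51 and 290.16 TPM in LF3. Its mean was 5.36-fold lower in LF3, and the replicates of each group lay close together. The log2 fold change was -2.42 ± 0.028 (limma adjusted p = 4.74e-13), at the 1.53 percentile of all tested genes, and -2.69 after rescaling.

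SMOX, the spermine oxidase, was at 19.75, 19.49 and 20.35 TPM in the CON libraries and at 10.75, 11.21 and 10.95 TPM in LF3. Every LF3 library was below every CON library, with a log2 fold change of -0.80 ± 0.058 (limma adjusted p = 1.78e-07) and -1.06 after rescaling. PAOX, which oxidizes the acetylated products of SAT1, was the least abundant gene, at 3.72, 2.54 and 3.30 TPM in the CON libraries and 5.36, 4.43 and 5.01 TPM in LF3. The LF3 libraries were above the CON libraries, but the spread was wide for the size of the change. Its log2 fold change was 0.51 ± 0.12 (limma adjusted p = 0.00178), with a 95% interval of 0.25 to 0.77. It was 0.29 after rescaling (adjusted p = 0.0385, the highest of its 15 alternatives, where the lowest was 0.000652). After quantile normalization it was 0.50 (adjusted p = 0.00315).

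**Figure D2:**
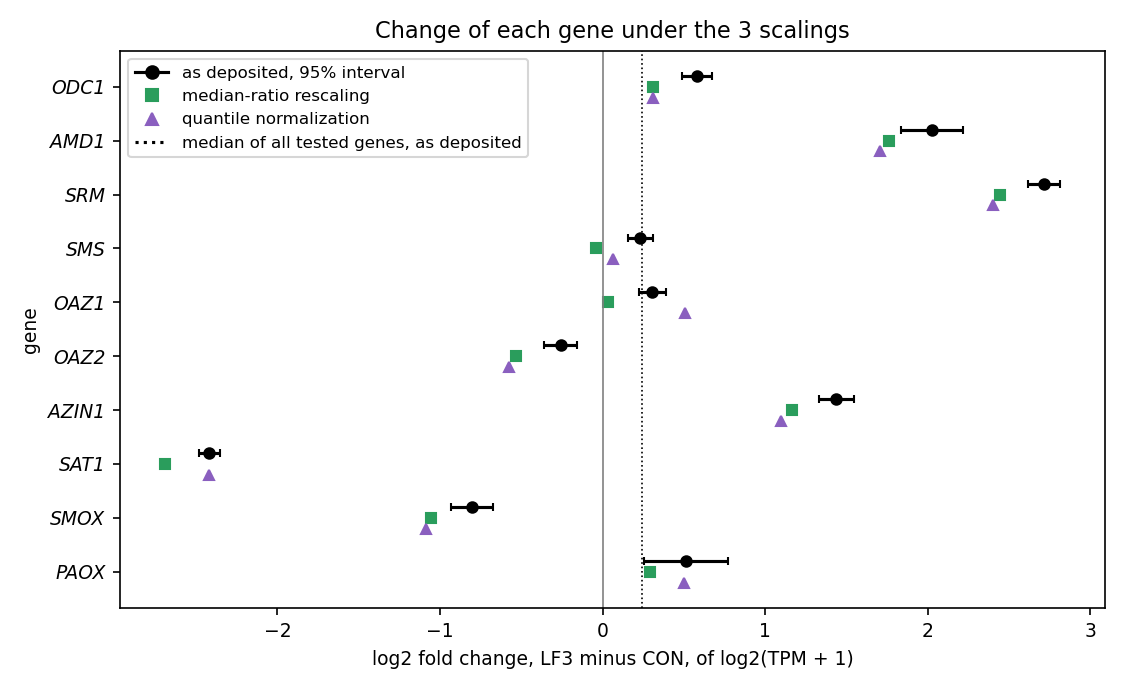
Log2 fold change of each gene (LF3 minus CON, log2(TPM + 1)) as deposited with its 95% interval (circles), after median-ratio rescaling (squares) and after quantile normalization (triangles); the dotted line is the median of all tested genes as deposited, 0.24. SRM, AMD1, AZIN1, SAT1 and SMOX stay far from 0 under the 3 scalings, while SMS falls on both sides of 0 and OAZ1 ranges from 0.030 to 0.51.

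The order of the levels changed between the groups. In CON it was SAT1, OAZ1, SMS, ODC1, OAZ2, AZIN1, SRM, SMOX, AMD1 and PAOX, and only SMOX and AMD1 overlapped as neighbours. ODC1 at 128 to 131 TPM and OAZ2 at 115 to 128 TPM were close without overlapping. In LF3 the order was OAZ1, SMS, SAT1, ODC1, SRM, AZIN1, OAZ2, AMD1, SMOX and PAOX, and no neighbours overlapped. SRM moved from rank 7 to rank 5, passing AZIN1 and OAZ2, and SAT1 from rank 1 to rank 3.

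Ratios of 2 genes within a library do not change when the library is divided by 1 factor, apart from the pseudocount, but quantile normalization, which treats levels unequally, can move them. They are given without a test because 3 against 3 cannot give an exact permutation p below 0.1. The SRM to SMS ratio of TPM was 0.0516 to 0.0585 in the CON libraries and 0.310 to 0.331 in the LF3 libraries. SRM RNA thus stayed below SMS RNA in every library, with a gap that was 5.59-fold narrower in LF3 on the log2(TPM + 1) scale. The ratio of ODC1 to SAT1, the entry step against acetylation, was 0.0837 to 0.0857 in CON and 0.669 to 0.707 in LF3, an 8.01-fold shift on the log2(TPM + 1) scale.

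For antizyme control the ratios moved less. ODC1 over OAZ1 was 0.118 to 0.129 in CON and 0.145 to 0.150 in LF3, a small difference of 0.28 on the log2(TPM + 1) scale. After quantile normalization this difference was -0.20, so no direction is given for this pair. ODC1 over AZIN1 went the other way, from 2.50 to 2.77 in CON to 1.35 to 1.54 in LF3, as the inhibitor changed more than the enzyme. OAZ2 over OAZ1 was 0.106 to 0.126 in CON and 0.0767 to 0.0800 in LF3, a difference of -0.56 on the log2(TPM + 1) scale that became -1.09 after quantile normalization. The other 5 pairs kept their direction under it. AMD1 over ODC1 was 0.133 to 0.162 and 0.364 to 0.471, and SMOX over PAOX 5.31 to 7.67 and 2.01 to 2.53, in CON and LF3 respectively.

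**Figure D3:**
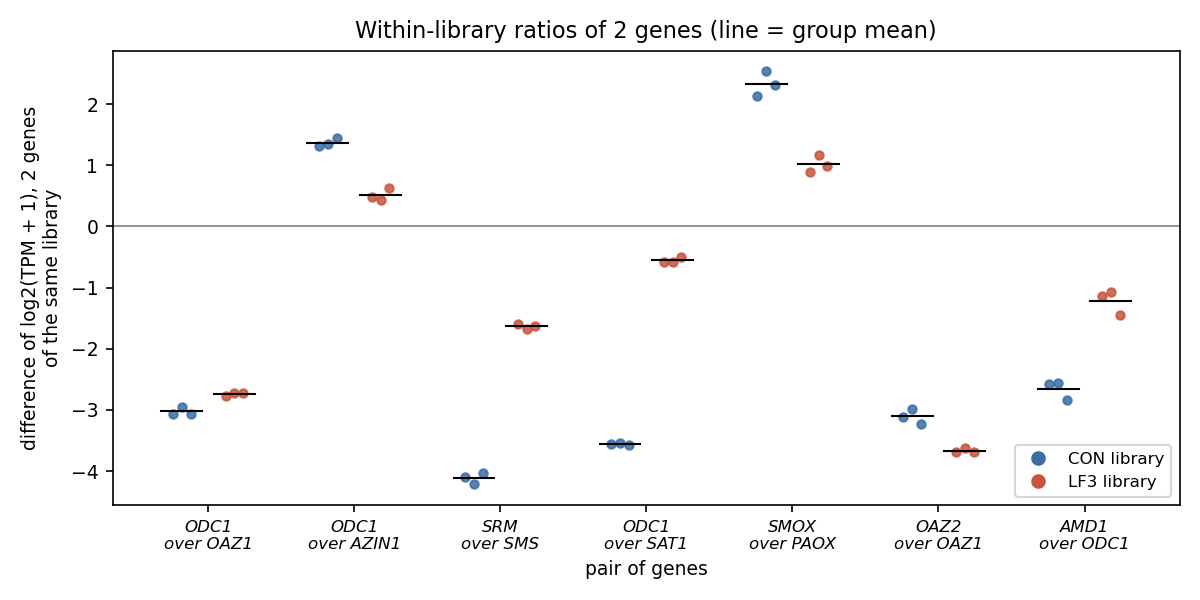
Difference of log2(TPM + 1) between 2 genes of the same library for 7 pairs, with CON libraries in blue, LF3 libraries in red and the group mean as a line. The ODC1 over SAT1 and SRM over SMS pairs show the widest gaps between groups, 8.01-fold and 5.59-fold, and ODC1 over OAZ1 the smallest at 1.21-fold, which reverses after quantile normalization.

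Other genes of the pathway were read from 6 lists of 30 genes in all, of which 29 were in the table and 22 were tested. Of these 22, 15 were called higher and 4 lower. Rescaling made these counts 14 and 5, and took their median log2 fold change from 0.82 to 0.56. As deposited, called changes of at least 2-fold were 9 upward and 1 downward. AGMAT and OAZ3 passed the filter only through LF3, where their means were higher, though OAZ3 was not called. Without these genes 14 of 20 were called higher and 4 lower, with 8 and 1 of at least 2-fold. The background for the counts as deposited is the shares of all tested genes given above. For the rescaled counts it is the 5195 and 5205 of 12195 tested genes called higher and lower after rescaling.

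S-adenosylmethionine feeds AMD1, and its synthetase gene MAT2A was among the largest changes. MAT2A was at 38.2 ± 0.734 TPM in the CON group against 202 ± 3.69 TPM in the LF3 group, with a log2 fold change of 2.38 ± 0.039 (limma adjusted p = 2.91e-12). MAT2B, its regulatory subunit, had 0.64 ± 0.068, or 0.37 after rescaling and 0.32 after quantile normalization. MAT1A, at 0.830 TPM on average in CON and 1.05 TPM in LF3, was not tested.

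Methionine salvage recycles methylthioadenosine, the by-product of SRM and SMS. All 5 of its genes were called higher, as were 53.2% of all tested genes. Their median log2 fold change was 1.46, with a range of 0.99 to 1.62. MTAP, which takes the by-product apart, was at 15.9 ± 1.54 TPM in the CON group against 37.4 ± 2.96 TPM in the LF3 group. The later steps MRI1, APIP, ENOPH1 and ADI1 had log2 fold changes of 0.99 ± 0.069, 1.46 ± 0.044, 1.61 ± 0.066 and 1.62 ± 0.051, and all 5 genes kept their calls after rescaling.

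Genes around ornithine differed among themselves. ARG2, the arginase that makes ornithine, was lower at -0.36 ± 0.051 (-0.63 after rescaling and -0.70 after quantile normalization), while OAT, which interconverts ornithine and glutamate semialdehyde, was higher at 0.96 ± 0.048. ALDH18A1, which makes that semialdehyde from glutamate, was at 90.7 ± 2.24 TPM in the CON group against 89.1 ± 1.86 TPM in the LF3 group (limma adjusted p = 0.560). It was called lower after rescaling, at -0.30 (adjusted p = 0.000108), and after quantile normalization, at -0.35, with adjusted p of 1.44e-05 to 0.861 over its alternatives. AGMAT was at 0.203 ± 0.0404 TPM in the CON group against 2.22 ± 0.137 TPM in the LF3 group. ARG1 averaged 0.0367 TPM in the CON libraries and 0.0700 TPM in LF3 and was not tested.

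Spermidine also supplies the hypusine residue of the translation factor eIF5A. EIF5A, the factor's gene, was at 388 ± 14.5 TPM in the CON group against 1968 ± 55.9 TPM in the LF3 group, a log2 fold change of 2.34 ± 0.036 (limma adjusted p = 2.19e-12). The enzymes that make hypusine went apart: DHPS, which acts first, had -0.49 ± 0.054 (-0.76 after rescaling and -0.84 after quantile normalization), and DOHH, which acts second, had 1.47 ± 0.070. EIF5A2, the paralog of EIF5A, was at 11.3 ± 0.684 TPM in the CON group against 12.8 ± 1.03 TPM in the LF3 group (limma adjusted p = 0.0683), and its direction turned after rescaling and quantile normalization.

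Of 8 transport genes 4 were tested, and all 4 were called higher as deposited, as were 53.2% of all tested genes. SLC18B1, a vesicular polyamine transporter, had 1.56 ± 0.065, ATP13A2, which exports polyamines from lysosomes, 0.69 ± 0.062, and SLC3A2, a subunit of amino acid and diamine carriers, 0.57 ± 0.041. After rescaling ATP13A2 was at 0.43 and SLC3A2 at 0.30, and after quantile normalization both were at 0.39, with the calls kept. ATP13A3, a relative of ATP13A2 tied to polyamine uptake, had 0.35 ± 0.064 and lost its call after rescaling (0.082, adjusted p = 0.201) and quantile normalization (0.035, adjusted p = 0.589, the highest of its alternatives; the lowest was 1.95e-05). With rescaling factors taken over all genes of the table, ATP13A3 kept its call (0.14, adjusted p = 0.0422).

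The paralogs of the 10 genes were lower or uncalled. AZIN2, a second antizyme inhibitor gene, was at 6.85 ± 0.484 TPM in the CON group against 2.09 ± 0.440 TPM in the LF3 group, a log2 fold change of -1.35 ± 0.11 (limma adjusted p = 5.35e-07), the opposite direction to AZIN1. SAT2, a relative of SAT1, had -0.57 ± 0.045 (-0.84 after rescaling and -0.90 after quantile normalization). OAZ3, known from testis, averaged 0.887 TPM in the CON libraries and 1.20 TPM in LF3 (limma adjusted p = 0.178), with a log2 fold change of 0.21, 0.069 after rescaling and 0.40 after quantile normalization, where it was called (adjusted p = 0.0171). SATL1 averaged 0.143 TPM in CON and was listed at 0 in LF3.

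**Figure D4:**
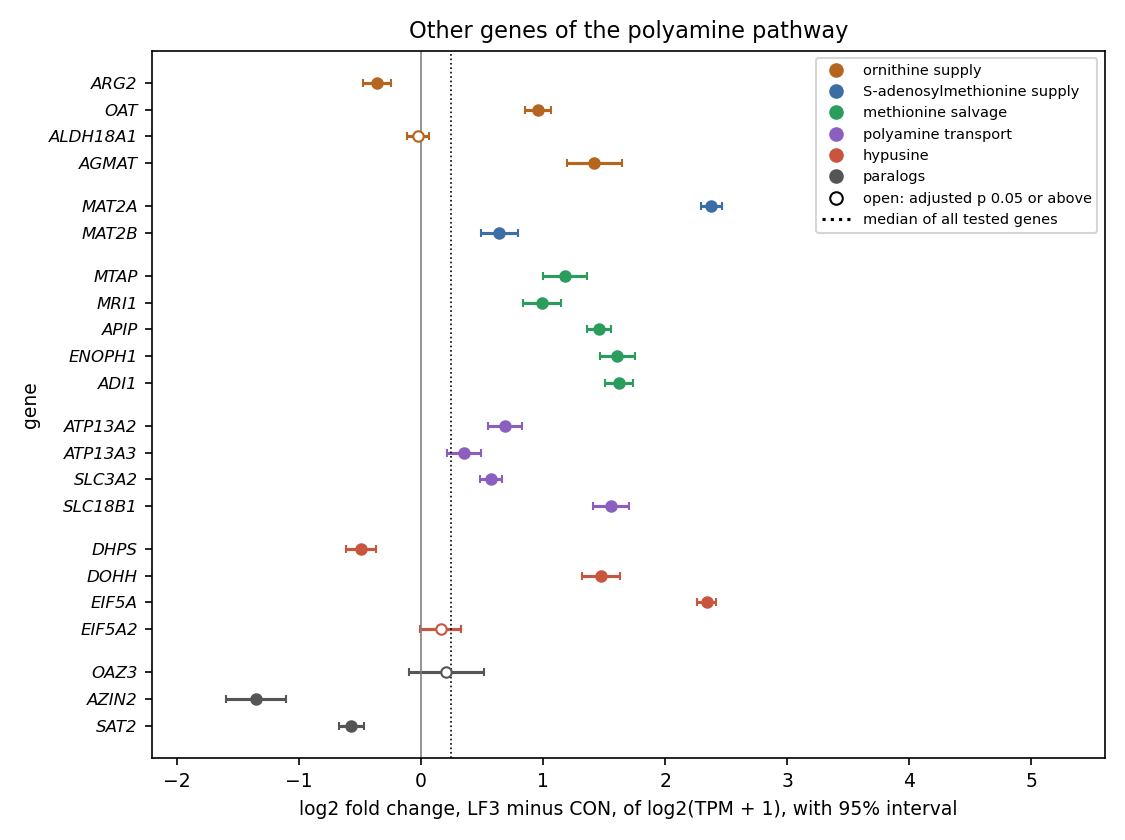
Log2 fold change with its 95% interval for the 22 tested genes of the 6 lists, coloured by list; filled points passed the threshold and the dotted line is the median of all tested genes, 0.24, as deposited. The 5 methionine salvage genes lie between 0.99 and 1.62, MAT2A and EIF5A beyond 2, and ARG2, DHPS, AZIN2 and SAT2 below 0; ATP13A3, ALDH18A1, OAZ3 and EIF5A2 change call or direction with the scaling.

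Some values carry the uncertainty of shared sequence. RefSeq names 4 pseudogenes of AMD1, 3 of SRM, 1 of SMS, 1 of OAZ1 and 3 of EIF5A, and the sources used here do not say how reads that match several places were handled. In GENCODE 29, exons of OAZ1 overlap those of JSRP1 on the other strand, and exons of AZIN1 and OAZ2 overlap antisense genes. Exons of PAOX and of OAZ1 also overlap those of another protein-coding gene on the same strand, which strand would not separate. Without strand, reads of the opposite-strand pairs cannot be told apart either.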

How the data were processed

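Trizol-extracted total RNA was sequenced on a BGISEQ500 (50-base single-end reads), per the labels' protocols. HISAT and Bowtie2 appear in the submitters' processing notes, along with GRCm38.p6, which is a mouse build although the table's genes are human; what the reads were aligned to was not settled. The deposited values are TPM with 2 decimals, with equal totals per library, and no counts were used. Of 17280 identifiers 17222 matched RefSeq.

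Testing was limited to genes averaging 1 TPM or more across the 6 libraries. Their log2(TPM + 1) values entered limma 3.58.1 (R 4.3.3; trended variances, two-sided, no block), and p was adjusted by Benjamini-Hochberg over all tested genes. Median-ratio factors used tested genes above 0 in every library, a choice made after values with factors over all genes above 0 in every library had been seen; both are given. The fit was tested on simulated data in which few genes were changed, in both directions. That test does not bear on the scaling of the libraries. Alternatives are in the closing section. The 10 genes and the lists were chosen with earlier results of these data known. All 10 genes are named, with tested genes of the lists, chosen by pathway role. Figures used matplotlib 3.10.9 (Python 3.11.15).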

Additional observations from a re-analysis of the deposited data

How the results depend on the processing

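Each gene value was recomputed under 2 other pseudocounts (0.1 and 0.5), 2 other filters (none and 5 TPM), 2 scalings (median-ratio and quantile), 3 other limma settings (untrended, robust, array-weighted) and a replicate block, and by leaving out each library in turn. Of 159 values of the 10 genes under these alternatives, 156 kept direction and side of the threshold. The other 3 are SMS at -0.043 after median-ratio rescaling and at 0.064 on quantile-normalized values, and OAZ1 at 0.030 after rescaling, and all come from scaling. PAOX, at a mean of 4.06 TPM, has no value under the 5 TPM filter. The 7 ratios were recomputed with a pseudocount of 0.1 and without each library, and all 49 values moved by less than 1 SD between replicates. Scalings of the ratios were added after seeing the data: median-ratio rescaling moved none of 7 by 1 SD, while after quantile normalization ODC1 over OAZ1 reversed (-0.20), and SRM over SMS (2.34), ODC1 over SAT1 (2.73), SMOX over PAOX (-1.59) and OAZ2 over OAZ1 (-1.09) moved. Of 346 values of the other pathway genes, 334 kept direction and side; 2 reversed, both of EIF5A2, at -0.091 after rescaling and -0.14 after quantile normalization. EIF5A2 was also called higher without CON replicate 2 (adjusted p = 0.0458), without LF3 replicate 3 (adjusted p = 0.0314) and once libraries were weighted (adjusted p = 0.0234), and OAZ3 without LF3 replicate 3 (adjusted p = 0.0252) and after quantile normalization (adjusted p = 0.0171); the cause was not tested. Over all tested genes the calls went from 6489 higher and 3938 lower to 5195 and 5205 after rescaling and 5351 and 5059 after quantile normalization. The median-ratio factors were first taken over all genes above 0 in every library, and the change to tested genes was made after those values were seen. With the first version the median of all tested genes was 0.045, 5461 genes were higher and 4946 lower, SMS was at 0.013 (adjusted p = 0.791), OAZ1 at 0.086 (adjusted p = 0.152) and EIF5A2 at -0.039 (adjusted p = 0.606), ATP13A3 kept its call, and the calls of the 10 genes stayed at 5 higher and 3 lower.

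Replicate numbers were not taken to pair the libraries, since the labels do not say that they mark shared cultures. Deviations from the group means correlated at 0.048, 0.11 and 0.16 for numbers 1, 2 and 3, all positive. Of the 6 pairs of different numbers 5 were negative (-0.17 to -0.013), and CON replicate 1 with LF3 replicate 2 was at 0.074, above its own number. Deviations within a group cancel out, so the values of different numbers are tied to those of the same number. With the replicate number as a block, 6536 genes were higher and 3986 lower, and 31 of 32 gene results kept their call and direction, with EIF5A2 called higher (0.16, adjusted p = 0.0335). The depth of the libraries is unknown, so no counting error is given for low genes such as PAOX.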
